A study of Homo sapiens with 3 samples.

Results

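Cluster 11 is a small group of cells in the authors' deposited clustering of CAMA-1 spheroids, CAMA-1 being an estrogen receptor-positive breast cancer cell line. It held 183 of the 19237 annotated cells, and its members were all cells that the deposited table assigns to 11 in its clustering at resolution 0.8. Spheroids were started from 2000 cells, kept under 1 µM ribociclib, an inhibitor of the cyclin-dependent kinases CDK4 and CDK6, and sampled on day 11. Sensitive cells carried the fluorescent protein mVenus, and resistant cells, derived from the same line by prolonged culture in ribociclib, carried mCherry. There was 1 library of sensitive cells alone, 1 of resistant cells alone and 1 coculture started with 50% of each, so every library received the drug and no untreated library is described here. The deposited table names the lineage of each cell, which gave 4 populations. Cluster 11 held 89 of 6292 resistant cells of the coculture, 57 of 7557 resistant cells of the monoculture, 35 of 2059 sensitive cells of the coculture and 2 of 3329 sensitive cells of the monoculture. By the deposited names it therefore took in both lineages, and it was not confined to the coculture. Of the 35 sensitive coculture cells, 25 were named from 1 transgene count, and these names are described further below. The 3 libraries held between 173405094 and 519475237 UMIs on named genes, before cells were selected.

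Because clustering used the same genes that are described below, and each condition had 1 library, no test was made. Values for cluster 11 were set beside those of the other annotated cells of the same lineage and library. A level is the summed count of unique molecular identifiers (UMIs, each standing for 1 captured RNA molecule) scaled to a total of 1000000 UMIs (CPM), and a log2 ratio is cluster 11 over the other cells after adding 1 CPM to each. Intervals are exact, at 95%, and cover counting error only, not the spread between cultures. Those of a ratio are for the ratio without the added 1 CPM, so at low levels they are not centred on the printed value. Cells are not replicates, and the 2 sensitive monoculture cells are given as values at the end.

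As background, the cell keeps part of its RNA inside the nucleus. MALAT1 is a long noncoding RNA of nuclear speckles, the bodies in which splicing factors gather, NEAT1 is the scaffold of neighbouring bodies called paraspeckles, and KCNQ1OT1 is an antisense RNA that stays on chromatin and silences an imprinted domain. Messenger RNAs are mostly cytoplasmic, and the RNAs encoded by mitochondrial DNA lie inside mitochondria. The capture of poly(A) RNA from a droplet takes in all of these compartments together.

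MALAT1, at chr11:65265111-65275544 in the GRCh37 build, had the log2 ratio farthest from 0 among genes of at least 50 CPM, ranked by the smallest size over the 3 populations. In resistant coculture cells it stood at 8605 CPM in cluster 11 and 45910 CPM in the other cells, a log2 ratio of -2.42 (interval -2.43 to -2.40). In resistant monoculture cells the levels were 11920 and 43601 CPM, with a log2 ratio of -1.87. In sensitive coculture cells they were 5049 and 35183 CPM, with a log2 ratio of -2.80. The sums were not carried by single cells, as the cell richest in MALAT1 held 8.3%, 8.9% and 11.0% of the cluster's MALAT1 UMIs in these populations.

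Cell by cell, MALAT1 in cluster 11 of the resistant coculture ran from 490 CPM through a median of 5799 CPM to 63076 CPM, while the other cells had a median of 41545 CPM. In the resistant monoculture the lowest, median and highest were 1084, 9578 and 104081 CPM, beside a median of 38698 CPM in the other cells. In the sensitive coculture they were 1152, 3654 and 17737 CPM, beside a median of 30204 CPM. The cells of the resistant monoculture were thus the most mixed, with an upper quartile of 23100 CPM that exceeds the lower quartile of the other cells, 20012 CPM. In the sensitive coculture the highest cluster 11 cell lay below the median of the other cells.

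**Figure D1:**
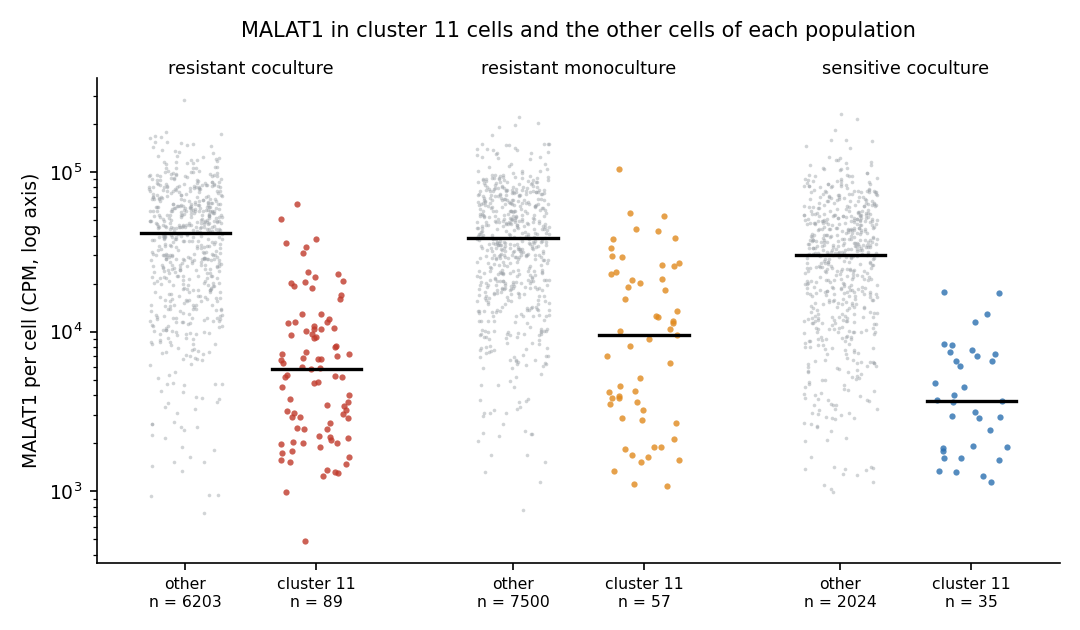
MALAT1 per cell in CPM on a log axis, for cluster 11 cells (coloured points, all drawn) and the other cells of the same population (grey points, 600 drawn at random from each), with black bars at the medians over all cells. The cluster 11 medians of 5799, 9578 and 3654 CPM lie below those of the other cells in all 3 populations, and the points overlap in each.

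Low MALAT1 was common in cluster 11 but not particular to it. The 10% of resistant coculture cells lowest in MALAT1 took in 59 of the 89 cluster 11 cells (66.3%, interval 55.5% to 76.0%), and these made up 9.37% of those 630 lowest cells. The same cut of the resistant monoculture took in 28 of 57 (49.1%), or 3.70% of the lowest cells, and that of the sensitive coculture 22 of 35 (62.9%), or 10.7% of the lowest cells. Most cells poor in MALAT1 thus lay in other clusters, and cluster 0, the largest one, held 32.5% of the lowest cells in the resistant coculture and 36.8% in the resistant monoculture. Among the authors' other clusters with at least 20 cells, the share of cells among the lowest 10% was at most 22.0% in the resistant coculture, 17.6% in the resistant monoculture and 20.6% in the sensitive coculture.

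The nuclear RNAs KCNQ1OT1 and NEAT1 were lower too. KCNQ1OT1 (chr11:2618538-2721233) stood at 12.9 CPM in cluster 11 and 46.6 CPM in the other resistant coculture cells, at 21.2 and 54.4 CPM in the resistant monoculture, and at 5.09 and 30.4 CPM in the sensitive coculture. Its log2 ratios were -1.77 (interval -2.33 to -1.41), -1.32 (-1.87 to -0.89) and -2.37 (-4.03 to -1.46), the last from only 6 UMIs. NEAT1 (chr11:65190245-65213011) stood at 1752 against 3127 CPM, 1387 against 2531 CPM and 1607 against 4028 CPM in the same order, with log2 ratios of -0.84, -0.87 and -1.32. PNN, which encodes the speckle-associated splicing protein pinin, had log2 ratios of -0.97, -0.88 and -1.28, and LEO1, a subunit of the PAF1 complex that travels with RNA polymerase II, -0.96, -0.91 and -1.01. NEAT1 was thus less reduced than MALAT1 in each population.

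A list of 22 nuclear-retained RNAs and speckle genes had 20 members to compare. Its median log2 ratio was -0.52 in the resistant coculture, -0.44 in the resistant monoculture and -0.55 in the sensitive coculture, beside -0.09, -0.07 and -0.17 over all genes compared. In those populations 2, 2 and 1 of the 20 lay above 0, where 4768 of 12421, 5543 of 12588 and 3952 of 11504 of all genes did. Of the members, 2, 2 and 5 were at least 2-fold lower and 0 were 2-fold higher, where 1.15%, 3.89% and 7.28% of all genes were 2-fold lower. The list summed to 11513 CPM in cluster 11 of the resistant coculture and 50502 CPM in the other cells, and MALAT1 made up most of both sums.

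When the other cells were reweighted to the MALAT1 levels of the cluster 11 cells, a comparison chosen after seeing the data, the list's medians were -0.13, -0.19 and -0.16. KCNQ1OT1 then stood at -0.34, -0.35 and -0.70, NEAT1 at -0.14, -0.32 and -0.33, PNN at -0.17, -0.34 and -0.23, and LEO1 at -0.47, -0.60 and -0.54. These genes therefore differed less from cells nearer in MALAT1, whose own log2 ratio after matching was -0.10, -0.37 and -0.03, so the match was incomplete in the resistant monoculture. Over the 2161 genes with at least 50 CPM in cluster 11 or the other cells of every population, the root mean square log2 ratio moved from 0.27 to 0.18 in the resistant coculture, from 0.42 to 0.38 in the resistant monoculture and from 0.37 to 0.31 in the sensitive coculture. Matched on mitochondrial percent instead, it was 0.28, 0.41 and 0.32, so in the sensitive coculture that match narrowed it about as much.

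A readout that the clustering did not use came from the rows of the count tables that have a gene identifier but no symbol, which the deposited UMI totals leave out. By identifier, 8162 of these rows are long noncoding RNAs, a class in which nuclear retention is common. They took 0.155% of UMIs (interval 0.151% to 0.160%) in cluster 11 and 0.172% (0.171% to 0.172%) in the other cells of the resistant coculture. In the sensitive coculture the shares were 0.148% (0.141% to 0.155%) and 0.161% (0.161% to 0.162%). In the resistant monoculture the order was the opposite, at 0.155% (0.149% to 0.161%) and 0.146% (0.146% to 0.147%). Per cell, the interquartile ranges of the groups overlapped in each population, and the difference was far smaller than that of MALAT1.

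Transcripts of the mitochondrial genome went the other way. The deposited percent of UMIs from mitochondrial genes had a median of 19.3% in cluster 11 and 15.2% in the other cells of the resistant coculture. The medians were 19.6% and 15.4% in the resistant monoculture, and 24.9% and 17.2% in the sensitive coculture. Its highest values in cluster 11 were 29.8%, 28.9% and 29.7%, under the authors' limit of 30%, as were the highest of the other cells. The share of cluster 11 cells within the highest 10% of their population by this percent was 32.6% (interval 23.02% to 43.3%), 22.8% (12.7% to 35.8%) and 37.1% (21.5% to 55.1%).

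**Figure D2:**
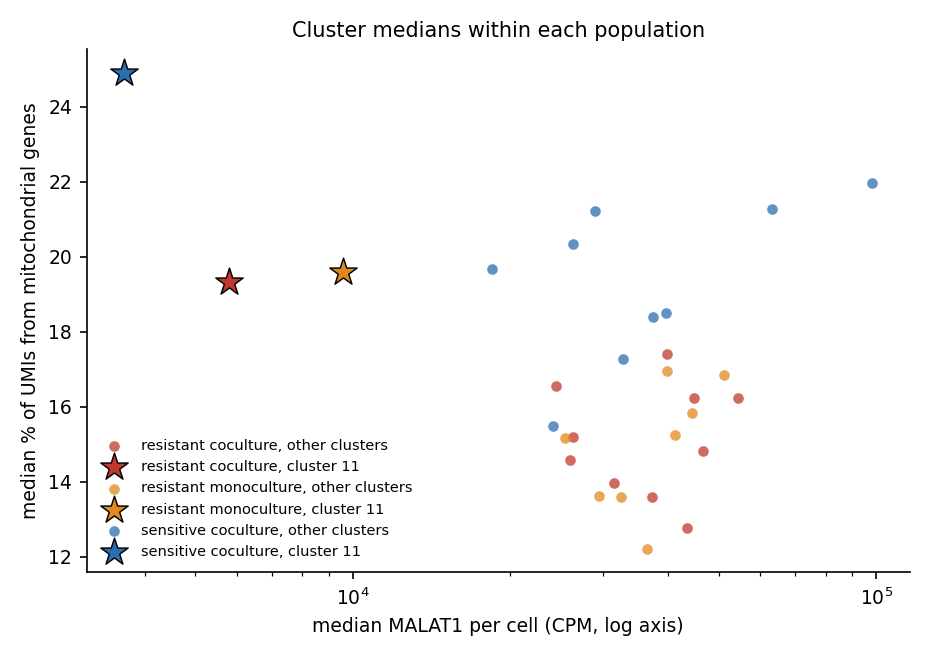
Median percent of UMIs from mitochondrial genes against the median of MALAT1 per cell in CPM (log axis), with 1 point for each cluster of at least 20 cells in a population and stars for cluster 11. Cluster 11 has the lowest median MALAT1 and the highest median mitochondrial percent in each of the 3 populations.

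The difference was uneven among the 13 mitochondrially encoded messengers. MT-CO2, which encodes subunit 2 of cytochrome c oxidase, stood at 46217 against 30058 CPM in the resistant coculture, 47191 against 28355 CPM in the resistant monoculture and 63231 against 36739 CPM in the sensitive coculture, with log2 ratios of 0.62, 0.73 and 0.78. MT-ND3, a subunit of complex I, had log2 ratios of 0.40, 0.45 and 0.65. MT-ND6, the complex I subunit that is transcribed from the opposite strand, was lower, at -0.67, -0.51 and -0.89. The list's median was 0.01, 0.09 and 0.25, and 8, 8 and 11 of its 13 members lay above 0. Of all genes 4768 of 12421, 5543 of 12588 and 3952 of 11504 did. None was 2-fold higher or lower, where 0.266%, 0.802% and 0.748% of all genes were 2-fold higher and 1.15%, 3.89% and 7.28% lower.

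Nuclear genes of the respiratory chain, whose proteins are imported into mitochondria, were slightly higher. Of 32 compared, 29 lay above 0 in the resistant coculture, 25 in the resistant monoculture and 24 in the sensitive coculture. Of all genes 4768 of 12421, 5543 of 12588 and 3952 of 11504 did. The list's medians were 0.19, 0.23 and 0.17, beside -0.09, -0.07 and -0.17 over all genes. UQCRH, of complex III, stood at 1049 against 770 CPM, 1117 against 795 CPM and 967 against 657 CPM, and COX7A2, of complex IV, at 918 against 692 CPM, 971 against 633 CPM and 939 against 715 CPM. Neither reached 2-fold. Cytosolic ribosomal protein genes, 79, 79 and 78 of them, had medians of 0.03, 0.07 and 0.00057. Matched on MALAT1, the respiratory chain medians were 0.06, 0.13 and 0.01.

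Counted over all genes with at least 50 UMIs in the sums compared, cluster 11 had few genes 2-fold higher and more that were 2-fold lower. In the resistant coculture 33 of 12421 genes were higher (0.266%) and 143 lower (1.15%). Among resistant monoculture cells 101 of 12588 were higher (0.802%) and 490 lower (3.89%), and in the sensitive coculture 86 of 11504 were higher (0.748%) and 837 lower (7.28%). With TMM scaling, which moved the median over the 2161 abundant genes of the sensitive coculture from -0.12 to 0.05, 155 were higher and 583 lower there. Most of these genes are expressed at low levels, and 134, 375 and 721 of those lower stood under 20 CPM in both groups. Counting intervals lay wholly beyond 2-fold for 6, 26 and 12 of those lower and 10, 14 and 9 of those higher. When only genes averaging 50 CPM or more over the groups were counted, 3 were higher (0.134%) and 2 lower (0.0895%) in the resistant coculture. By the same rule 1 was higher (0.0451%) and 43 lower (1.94%) in the resistant monoculture, and 2 were higher (0.0917%) and 17 lower (0.779%) in the sensitive coculture. Beside counts of cluster 11, which was made from these genes, these shares are a description.

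In all 3 populations at once, 9 genes were 2-fold lower and 1 was 2-fold higher. Those lower were MALAT1, KCNQ1OT1, RSRP1, SLC16A4, RANBP17, PRR4, DAPK2, USP32 and ZNF814, of which all but MALAT1 had at most 41 UMIs in any of the cluster 11 sums, and DAPK2 had 0 in 2 of them. The gene that was higher was C15orf48, which encodes a small protein of mitochondrial complex IV also known as NMES1, and it was chosen after its values were seen. It stood at 64.8 against 22.7 CPM in the resistant coculture (log2 ratio 1.48, interval 1.31 to 1.72), 51.3 against 18.8 CPM in the resistant monoculture (1.40, 1.12 to 1.75) and 37.3 against 17.5 CPM in the sensitive coculture (1.05, 0.62 to 1.52). A single cell held 20.9%, 21.8% and 38.6% of its UMIs in these sums. Cells with at least 1 UMI were 56.2% against 27.9%, 45.6% against 24.5% and 48.6% against 27.6%. With every cell thinned to 5000 UMIs the shares were 16.9% (interval 9.75% to 26.3%) against 7.98%, 15.8% (7.48% to 27.9%) against 6.59%, and 5.71% (0.700% to 19.2%) against 6.42%, so a difference was not detectable at equal depth in the sensitive coculture. Matched on MALAT1 its log2 ratios were 0.74, 0.42 and 0.34.

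Among the 2161 genes of at least 50 CPM, 57.4% had the same sign in all 3 populations, 459 of them higher and 782 lower. The 20 highest by their smallest log2 ratio included STMP1, which encodes a short mitochondrial protein, with 0.67, 0.73 and 0.65, RPL39L, a ribosomal protein paralogue, with 0.61, 0.57 and 0.79, HMGN3, a nucleosome-binding protein, with 0.51, 0.49 and 0.53, and the long noncoding RNA CRNDE with 0.43, 0.57 and 0.46. RPL39, ATP5MD, ATP6V1G1, SEC61G and TMEM14A, which encode small proteins of the ribosome, ATP synthase, the vacuolar proton pump, the translocon and a membrane, lay between 0.40 and 0.73. These are shifts of under 2-fold, and their shared sign over the populations follows from how the genes were picked. STMP1 remained at 0.43, 0.52 and 0.38 when the other cells were matched on MALAT1. Reads of RPL39 and RPL39L, as of RPL13A below, can be shared with near-identical copies, so their values are uncertain.

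**Figure D3:**
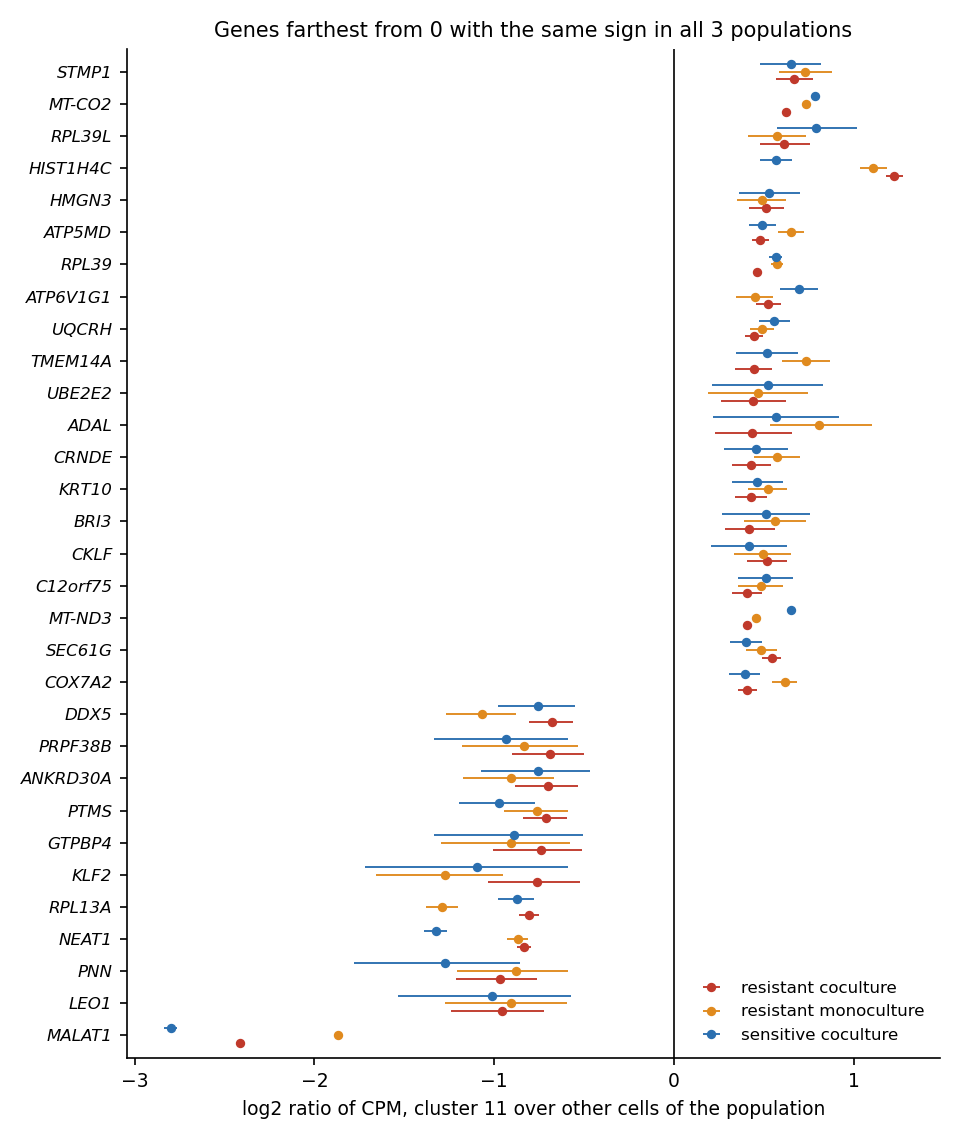
Log2 ratio of CPM in cluster 11 over the other cells, for the 20 highest and 11 of the 12 lowest genes by the smallest ratio over 3 populations, with 95% counting intervals as bars. MALAT1 lies at -1.87 to -2.80, the other 10 lower genes drawn between -0.68 and -1.32, and the higher genes, except HIST1H4C at up to 1.23, between 0.39 and 0.81.

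Lower genes included RNA-processing factors and a ribosomal protein gene. PRPF38B, a splicing factor, had log2 ratios of -0.69, -0.84 and -0.93, and DDX5, an RNA helicase, -0.68, -1.07 and -0.76. RPL13A stood at 782 against 1366 CPM, 605 against 1480 CPM and 698 against 1281 CPM, or -0.80, -1.29 and -0.87, although ribosomal protein genes as a list did not shift. GTPBP4, a ribosome assembly factor, PTMS, a chromatin-associated acidic protein, and KLF2, a transcription factor, lay between -0.71 and -1.27. Matched on MALAT1, RPL13A was still at -0.57, -1.11 and -0.66.

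The histone H4 gene HIST1H4C (chr6:26104161-26104565), whose messenger accumulates in S phase and normally lacks a poly(A) tail, was the 1 gene of the 2161 that was 2-fold higher in either resistant population. It stood at 1236 against 528 CPM in the resistant coculture (log2 ratio 1.23, interval 1.18 to 1.27), 868 against 402 CPM in the resistant monoculture (1.11, 1.03 to 1.18) and 910 against 613 CPM in the sensitive coculture (0.57, 0.48 to 0.66). Per cell the medians were 807 against 157 CPM, 585 against 130 CPM and 598 against 135 CPM, a wider gap than in the sums. With the other cells matched on phase the log2 ratios were 0.36, 0.88 and -0.32. Matched on MALAT1 and phase together, the value in the resistant coculture was -0.046. Of 16 replication-dependent histone genes compared, 5, 6 and 6 lay above 0, with medians of -0.18, -0.22 and -0.12. Of all genes, 4768 of 12421, 5543 of 12588 and 3952 of 11504 lay above 0, which are similar shares. In the list 1, 2 and 0 were 2-fold higher, where 0.266%, 0.802% and 0.748% of all genes were. HIST1H4C thus differed from most of the list, but HIST1H4H, another H4 gene, was higher too, at 0.91, 0.61 and 0.59.

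By the phase the authors deposited, which is called from the same genes, cluster 11 held more cells in S or G2M. In the resistant coculture these were 73 of 89 cells (82.0%, interval 72.5% to 89.4%), beside 49.9% of the other cells, with 60.7% in S and 21.3% in G2M. Among resistant monoculture cells they were 42 of 57 (73.7%, 60.3% to 84.5%), beside 49.8%, with 33.3% in S and 40.4% in G2M. In the sensitive coculture they were 21 of 35 (60.0%, 42.1% to 76.1%), beside 44.5%, with an interval that takes in that share. Thinning to 5000 UMIs gave 82.0%, 78.9% and 57.1%, beside 58.1%, 58.1% and 54.3%, but moved cells between S and G2M: in the sensitive coculture S went from 51.4% to 22.9% and G2M from 8.57% to 34.3%.

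The genes of the phases differed between populations. The S-phase list had medians of 0.16, 0.01 and -0.21 over 40 genes, of which 27, 22 and 12 lay above 0. It summed to 1424 CPM (interval 1383 to 1467) against 1227 CPM in the resistant coculture, 1257 against 1229 CPM in the resistant monoculture and 1064 against 1204 CPM in the sensitive coculture. The G2M list had medians of -0.31, -0.08 and -0.60 over 52 genes, of which 11, 23 and 0 lay above 0. Of all genes 4768 of 12421, 5543 of 12588 and 3952 of 11504 lay above 0. Over all genes the medians were -0.09, -0.07 and -0.17, so the G2M list in the resistant monoculture and the S-phase list in the sensitive coculture lay near them. CCNB1, the cyclin of mitotic entry, chosen after its values were seen, stood at 96.0 against 153 CPM, 89.7 against 151 CPM and 56.8 against 140 CPM, with log2 ratios of -0.67, -0.74 and -1.29. CENPE, a mitotic kinesin, had log2 ratios of -1.32, -0.65 and -1.21. Matched on phase, the S-phase medians were -0.38, -0.22 and -0.66 and the G2M medians -0.41, -0.53 and -0.52, so at equal phase calls both lists lay lower in cluster 11. No reading of cycling is made from the calls alone.

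Luminal keratins, the intermediate filaments of this epithelial line, were lower, most of all in the resistant monoculture. KRT19 stood at 1803 against 2583 CPM in the resistant coculture, 1125 against 3231 CPM in the resistant monoculture and 1909 against 2940 CPM in the sensitive coculture, with log2 ratios of -0.52, -1.52 and -0.62. Its per-cell upper quartile in the resistant monoculture, 1401 CPM, lay under the lower quartile of the other cells, 2163 CPM. KRT8 had log2 ratios of -0.47, -1.30 and -0.78, and KRT18, chosen after its values were seen, had -0.25, -1.21 and -0.59. Matching on MALAT1 left KRT19 at -0.51, -1.48 and -0.60. The luminal list of 18 genes compared had medians of -0.21, -0.47 and -0.21, with 0, 3 and 0 genes 2-fold lower, where 1.15%, 3.89% and 7.28% of all genes were. The 8 defining luminal markers, KRT8, KRT18, KRT19, EPCAM, CDH1, GATA3, FOXA1 and ESR1, were all detected in cluster 11 of each population and summed to 5993, 4171 and 5911 CPM, beside 7704, 9653 and 8893 CPM in the other cells.

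Most chaperone genes had log2 ratios below 0. The heat shock list of 18 genes had medians of -0.19, -0.51 and -0.65, with 5, 5 and 2 genes above 0, where 4768 of 12421, 5543 of 12588 and 3952 of 11504 of all genes were. All genes had medians of -0.09, -0.07 and -0.17, so the heat shock shift was small in the resistant coculture. HSP90AB1, a cytosolic chaperone of signalling proteins, stood at 1873 against 2775 CPM, 1301 against 2303 CPM and 1663 against 3068 CPM, or -0.57, -0.82 and -0.88, and HSPA8, its constitutive HSP70 partner, had -0.43, -0.86 and -0.94. The unfolded protein response list of 18 genes had medians of -0.27, -0.50 and -0.36, with HSPA5, the chaperone of the endoplasmic reticulum, at -0.54, -0.83 and -0.71. In these lists 0 genes were 2-fold lower except for 1 heat shock gene in the sensitive coculture, beside 1.15%, 3.89% and 7.28% of all genes. Matched on MALAT1 the heat shock medians were -0.16, -0.48 and -0.49.

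Among the stress and signalling lists, the immediate early genes had medians of -0.16, -0.31 and -0.0011, with JUN at -0.69, -1.11 and -0.66 and FOSB at -0.60, -1.15 and -1.14. The p53 targets had medians of -0.09, -0.11 and -0.16 and the BCL2 family of death genes -0.14, -0.02 and -0.01, close to those of all genes. BBC3, the death inducer PUMA, stood at 11.3 against 8.49 CPM, 15.3 against 10.1 CPM and 15.3 against 7.76 CPM, from 36, 26 and 18 UMIs. NF-kB targets (0.08, -0.28 and -0.43), interferon-stimulated genes (0.06, -0.47 and -0.28) and ATF4 targets (0.09, -0.25 and -0.26) lay above 0 in the resistant coculture and below it in the others. The first pair of these lay slightly below 0 in the resistant coculture as well when matched on MALAT1, at -0.01 and -0.07. Hypoxia and glycolysis genes had medians of -0.19, -0.26 and -0.18, cholesterol synthesis genes -0.10, -0.27 and -0.20, and lysosomal genes -0.13, -0.20 and -0.12. These lay below the all-gene median of -0.07 in the resistant monoculture. In the cocultures they lay nearer the all-gene medians of -0.09 and -0.17, with hypoxia and glycolysis genes in the resistant coculture the farthest below. Estrogen-induced genes had medians of -0.00059, -0.15 and -0.21, but -0.15, -0.50 and -0.07 over the 15, 12 and 17 members with a mean of at least 50 CPM. The list summed to 9109 against 12077 CPM, 7685 against 12139 CPM and 11324 against 11947 CPM. With TMM scaling the medians of the estrogen-induced genes in the resistant coculture and of the immediate early, lysosomal, histone and BCL2 family lists in the sensitive coculture were above 0, between 0.02 and 0.16. The 10 YAP targets compared had medians of 0.22 and 0.42 in resistant cells, and -0.33 over 9 in the sensitive coculture. These are low genes: the list summed to 69.2, 58.4 and 50.9 CPM in cluster 11, and 0 members had a mean of at least 50 CPM. CTGF and CYR61 of that list had no match.

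**Figure D4:**
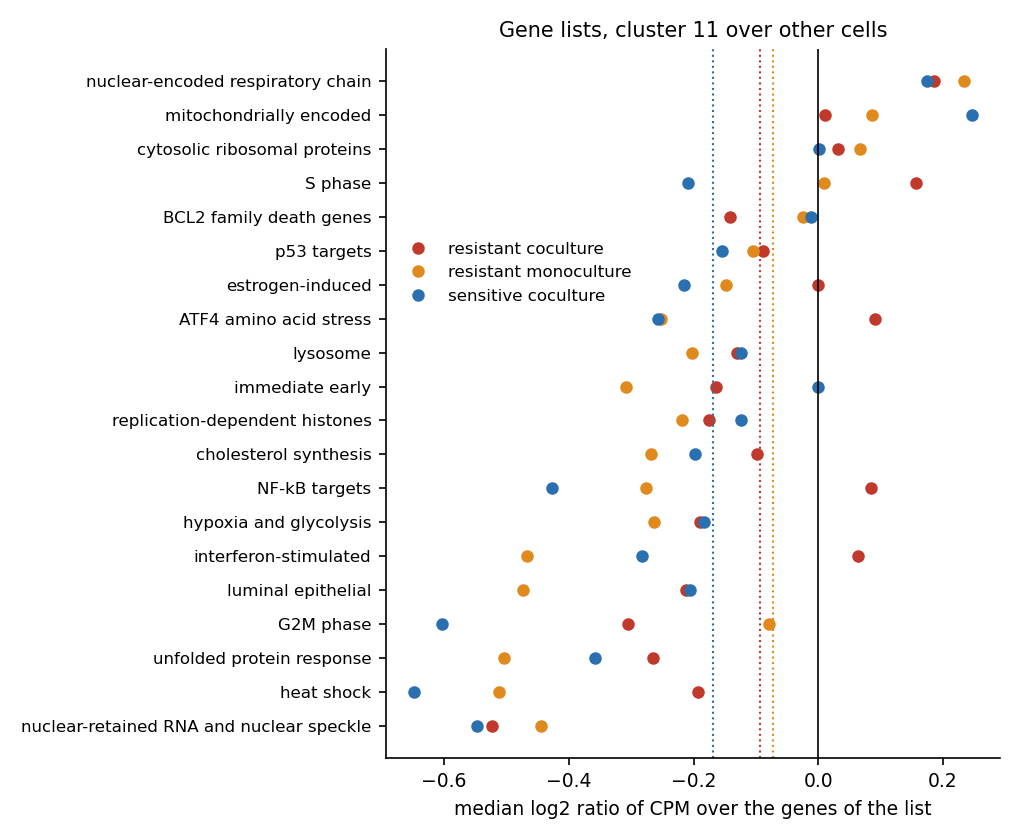
Median log2 ratio of CPM, cluster 11 over the other cells, for each list with at least 10 genes compared in every population, with dotted lines at the medians over all genes of -0.09, -0.07 and -0.17. The list of nuclear-retained RNAs and speckle genes lies to the left in the 3 populations. Heat shock and unfolded protein response genes do so too, least in the resistant coculture. Nuclear-encoded respiratory chain genes lie to the right.

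In further genes, named here after their values were seen, cluster 11 cells of the resistant monoculture had larger log2 ratios than those of the other populations. LRRC75A stood at 37.2 against 7.83 CPM, with a log2 ratio of 2.11, and was seen in 56.1% of cluster 11 cells against 20.9% of the others. CNIH2, an auxiliary protein of glutamate receptors, stood at 43.7 against 12.6 CPM, or 1.71. Their log2 ratios were 1.06 and 0.77 in the resistant coculture and 0.11 and 0.44 in the sensitive coculture. LRRC75A was thus 2-fold higher in the resistant coculture as well. Matched on phase, CNIH2 was at 1.25 in the resistant monoculture, 0.21 in the resistant coculture and 0.08 in the sensitive coculture. LRRC75A was then at 2.06, 1.06 and 0.12. Cluster 11 cells of the resistant monoculture also had fewer UMIs, with a median of 26826 against 35492.5. Those of the resistant coculture had more, 36230 against 30611, and those of the sensitive coculture 35578 against 34039.5. Matched on UMI depth, the resistant monoculture still had 52 of the 2161 abundant genes at least 2-fold lower, beside 52 without the matching. Matching on MALAT1 left 33 and matching on mitochondrial percent 32.

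The lineages in the coculture were called from the fluorescent transgenes, and cluster 11 cells carried fewer of these UMIs. mCherry stood at 51.9 CPM in resistant cluster 11 cells and 84.2 CPM in the other resistant cells of the coculture, and mVenus at 42.4 CPM in sensitive cluster 11 cells and 66.1 CPM in the other sensitive cells. In the resistant monoculture, which holds 1 lineage, mCherry stood at 28.9 against 54.1 CPM, and 32 of 57 cluster 11 cells (56.1%, interval 42.4% to 69.3%) had no transgene UMI, beside 26.9% of the others. A single transgene UMI was all that supported the call in 51 of 89 resistant cells (57.3%, interval 46.4% to 67.7%), beside 37.2% of the others, and in 25 of 35 sensitive cells (71.4%, 53.7% to 85.4%), beside 44.8%. The study's methods state a minimum of 2 transgene UMIs, which the deposited lineage names do not follow. No annotated cell of the coculture had UMIs of both transgenes. Of 12346 coculture barcodes within the stated limits, 472 did, and none of these was annotated.

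Genes that separate the lineages gave another view of the calls, with MGP named after its values were seen. Of genes at least 8-fold different between the monocultures, cluster 11 left out, only MGP marked resistant cells, while FABP7, SCIN, MUCL1, SLC7A8 and LINC02303 marked sensitive cells. MGP (chr12:15033798-15038791), which encodes a secreted inhibitor of calcification, stood at 6498 CPM in resistant and 404 CPM in sensitive monoculture. In sensitive coculture cells it reached 3790 CPM in cluster 11 and 995 CPM in the others, a log2 ratio of 1.93 (interval 1.89 to 1.97), with per-cell medians of 2572 and 374 CPM. In resistant coculture cells it stood at 4876 CPM in cluster 11 and 6001 CPM in the others. In sensitive cluster 11 cells it thus lay between the levels of the lineages. The per-cell median was 3287 CPM in the 25 of these cells with 1 mVenus UMI and 556 CPM in the 10 with 2 or more, beside 401 and 356 CPM in the other sensitive cells.

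FABP7 (chr6:123100861-123105219), a fatty acid-binding protein gene, was near 0 in resistant monoculture, at 0.59 CPM in cluster 11 from 1 UMI and 0.81 CPM in the other cells. In resistant coculture cells it stood at 104 CPM in cluster 11 and 13.0 CPM in the others, a log2 ratio of 2.91 (interval 2.83 to 3.17), or 1.95 when matched on MALAT1. In sensitive coculture cells it stood at 264 and 289 CPM. Of the resistant cluster 11 cells of the coculture 36.0% had a FABP7 UMI, beside 17.98% of the other resistant cells there and 1.8% of resistant monoculture cells, which were cultured without sensitive cells. Thinned to 5000 UMIs the shares were 21.3% (interval 13.4% to 31.3%), 3.89% and, outside cluster 11 of the resistant monoculture, 0.293%. A single cell held 25.98% of the UMIs. With 1 mCherry UMI the level was 145 CPM and with 2 or more 57.6 CPM, and 39.2% and 31.6% of those cells had a FABP7 UMI. The 5 sensitive-lineage genes together summed to 616 CPM (interval 589 to 643) in resistant cluster 11 cells of the coculture and 547 CPM in the others. In the resistant monoculture, where no sensitive cell was plated, the same sum was 576 CPM (541 to 614) in cluster 11 and 308 CPM in the others. Its per-cell medians there were 92.8 and 75.9 CPM, and FABP7 with LINC02303 gave 0.59 CPM of the cluster 11 sum. After thinning, SCIN was seen in 0 of 57 of these cells and SLC7A8 in 1, beside 3.33% and 2.71% of the others. MUCL1 was seen in 40.4% and 35.1%. In the sensitive coculture the sum of the 5 genes was 1816 and 1796 CPM, of which MUCL1 alone gave 1478 and 1374 CPM. After thinning, SCIN was seen in 11.4% (interval 3.20% to 26.7%) of these cluster 11 cells and 30.5% of the others. LINC02303 was seen in 8.57% and 14.3%. The shares were 14.3% and 10.6% for SLC7A8, 42.9% and 36.4% for FABP7, and 77.1% and 69.6% for MUCL1.

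MGP and FABP7 both passed set levels in a larger share of cells in cluster 11 of the coculture. The FABP7 level used is very few UMIs per cell, and the other sensitive monoculture cells had a median of 124 CPM. A level of MGP at or above the lower quartile of the other resistant coculture cells (1650 CPM) together with a level of FABP7 at or above the median of the other sensitive coculture cells (32.8 CPM) was found in 20 of 89 resistant cluster 11 cells (22.5%, interval 14.3% to 32.6%), beside 6.66% of the other resistant cells. It was found in 12 of 35 sensitive cluster 11 cells (34.3%, 19.1% to 52.2%), beside 5.53% of the other sensitive cells. Among the 472 barcodes with both transgenes it was found in 13.6% (10.6% to 17.0%). In the resistant monoculture it was found in 0 of 57 cluster 11 cells, which at 95% allows up to 6.27%, and in 0.413% of the others. These thresholds were chosen after seeing the data, and the part of barcodes holding more than 1 cell, of free RNA and of lineage calls from 1 UMI in this overlap was not tested.

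**Figure D5:**
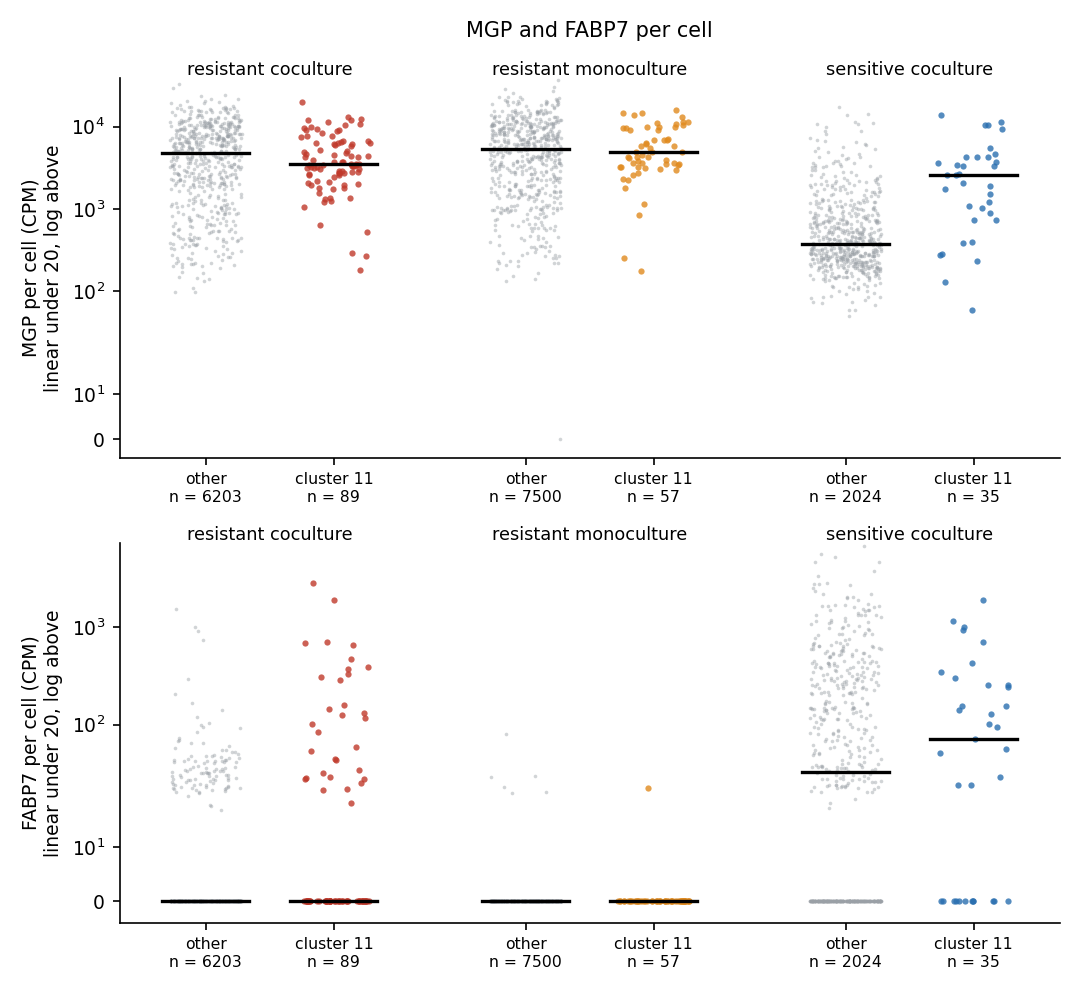
MGP (top) and FABP7 (bottom) per cell in CPM, on an axis that is linear under 20 and logarithmic above, for cluster 11 cells (coloured, all drawn) and 600 of the other cells of each population (grey), with black bars at the medians over all cells. In the sensitive coculture the MGP medians are 2572 CPM in cluster 11 and 374 CPM in the others. FABP7 is detected in 36.0% of resistant coculture cells of cluster 11, while the 57 cluster 11 cells of the resistant monoculture held 1 FABP7 UMI.

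Differences between the named lineages were smaller inside cluster 11, where 51 of 89 resistant and 25 of 35 sensitive cells were named from 1 transgene UMI. The part of those names in the gap was not tested. Across 50 genes at least 4-fold apart between the monocultures, the median log2 gap in the same direction was 2.42 between the monocultures, 1.30 between the other coculture cells and 0.78 between the cluster 11 cells of the coculture, with 45 and 43 of the 50 genes in the same direction. FABP7 was 4.38 lower on the log2 scale in other resistant than in other sensitive cells and 1.33 lower in cluster 11. MUCL1, a mucin-like secretory gene, kept its gap, with a log2 difference of resistant over sensitive of -1.60 in cluster 11 and -1.43 outside it, as did KRT81, a hair keratin, at 1.54 and 1.496. DHRS2, a short-chain reductase, was the gene most in favour of resistant cluster 11 cells, at 57.3 against 7.63 CPM, with 28.02% of its UMIs in 1 cell. BIRC5, the mitotic survival protein survivin, and TYMS, thymidylate synthase, were higher in resistant cluster 11 cells by 1.06 each and by 0.15 and 0.14 outside. Phase was not matched here, with 82.0% of resistant and 60.0% of sensitive coculture cells of cluster 11 in S or G2M, and its part was not tested.

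Doublet scores, computed here with scrublet on each library, were higher in cluster 11 without most cells passing the threshold. The study's methods state that doublets predicted at the same threshold were removed. Whether the deposited cells had all passed that step was not tested. Scores above 0.25 were found in 9 of 89 cells of the resistant coculture (10.1%, interval 4.73% to 18.3%), beside 4.16% of the others, in 6 of 57 cells of the resistant monoculture (10.5%, 3.96% to 21.5%), beside 3.29%, and in 3 of 35 of the sensitive coculture (8.57%, 1.80% to 23.1%), beside 2.77%. Above 0.20 the shares were 22.5%, 21.1% and 22.9%, beside 7.64%, 7.52% and 5.19%. Median scores were 0.138, 0.127 and 0.165, beside 0.070, 0.078 and 0.061. Some other clusters had larger shares above 0.25, such as cluster 3 in the resistant coculture with 27.5% and cluster 2 in the sensitive coculture with 29.4%. In the coculture cluster 3 held 91 resistant and 1087 sensitive cells, and cluster 2 held 34 sensitive and 1005 resistant cells. Each was thus mostly of the other lineage. Cluster 2 had 8.36% among resistant coculture cells, and clusters 3 and 7 had 1.66% and 2.59% among sensitive ones. In the resistant monoculture no other cluster had a larger share than cluster 11, the next being cluster 2 with 7.21%. Among the 472 barcodes with both transgenes 17.8% scored above 0.25, so most barcodes that hold both labels lay under the threshold. Those barcodes had a median MALAT1 of 32721 CPM, above the cluster 11 medians, and a median mitochondrial percent of 16.1%. Without the cells above 0.25, MALAT1 in cluster 11 had log2 ratios of -2.53, -1.76 and -2.98. No barcode of cluster 11 was found in another library, while 64 annotated cells shared theirs.

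In resistant cells cluster 11 was most like cluster 1, and the sensitive coculture cells were not compared with other clusters in this way. Over 2283 genes of the resistant coculture Pearson's r of log2 levels, taken across genes that are not independent, was 0.98 with cluster 1, 0.976 with cluster 3 and 0.975 with cluster 5. The resistant monoculture gave 0.961 with cluster 1, 0.956 with cluster 2 and 0.953 with cluster 5. Cluster 1 was 97.2% S or G2M cells in the resistant coculture and 97.4% in the resistant monoculture, had median MALAT1 of 46714 and 41311 CPM and median mitochondrial percents of 14.8% and 15.3%. Against cluster 1, 7 of 2283 genes were 2-fold higher and 8 lower in the resistant coculture. In the resistant monoculture 3 of 2279 were higher and 87 lower. Lower genes there numbered from 54 against cluster 0 to 141 against cluster 10, so the 87 were not particular to cluster 1. Against cluster 1, MALAT1 differed by -2.44 and -1.82 on the log2 scale. Cluster 5, with fewer S or G2M cells (34.5% and 31.0%), had lower median MALAT1 than cluster 1, at 26348 and 25419 CPM, yet above cluster 11.

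Markers of other cell types were at or near 0. Of 7 basal or myoepithelial markers 4, 5 and 5 had no UMI in cluster 11, and the list summed to 4.72, 1.77 and 12.7 CPM, beside 4.04, 2.37 and 14.97 CPM in the other cells. Fibroblast markers summed to 6.61, 2.95 and 4.24 CPM, beside 5.12, 2.63 and 22.6 CPM in the other cells, leukocyte markers to 1.89, 2.36 and 2.54 CPM and endothelial markers to at most 1.70 CPM, with PTPRC, the pan-leukocyte marker, at 0 throughout. Erythroid markers summed to 19.5, 23.6 and 7.63 CPM, nearly all HBA1, beside 15.4, 16.6 and 9.09 CPM in the other cells. Ciliated markers summed to at most 8.48 CPM and neuroendocrine markers to at most 5.04 CPM. No list of markers of another cell type came near the sum of the luminal markers.

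By position, and leaving out the mitochondrial genome described above, chromosome medians of the log2 ratio, over genes of at least 20 CPM, ranged from -0.16 on chromosome 5 to -0.02 on chromosome 21 in the resistant coculture around a median of -0.06. The range was -0.13 on chromosome 2 to 0.11 on chromosome 18 around -0.05 in the resistant monoculture, and -0.38 on chromosome 21 to -0.06 on chromosome 11 around -0.15 in the sensitive coculture. Chromosome 21 had -0.02, -0.04 and -0.38 in the 3 populations, the last over 52 genes. By exon length, genes were put in 5 classes of like size, and the shortest class had medians of 0.06, 0.03 and -0.04 and the longest -0.18, -0.07 and -0.23. Spearman's rho across genes between exon length and the log2 ratio was -0.28 in the resistant coculture, -0.07 in the resistant monoculture and -0.16 in the sensitive coculture, given as a description since genes are not independent.

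Of the 2 sensitive monoculture cells of cluster 11, the cell with 14002 UMIs had a mitochondrial percent of 27.9%, MALAT1 at 9784 CPM, FABP7 at 500 CPM and MGP at 1643 CPM. The cell with 19405 UMIs had a mitochondrial percent of 26.03%, MALAT1 at 1340 CPM, FABP7 at 3813 CPM and MGP at 51.5 CPM. The median of MALAT1 in the other 3327 cells was 53926 CPM. With 2 cells no ratio is given.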

How the data were processed

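Single-cell libraries (10x 3' RNA) of 3 spheroid cultures were used. The counts, whole numbers of UMIs per gene and cell, were deposited by the authors as made with Cell Ranger 3.0.2 on GRCh37, per the submitters' processing notes. The authors' deposited cell table gave the lineage, cluster, phase, S and G2M score of each cell and the percent of UMIs from mitochondrial genes, and the authors kept cells with 3000 to 7000 genes, 2000 to 60000 UMIs and under 30% mitochondrial UMIs, after which their methods removed doublets predicted by scrublet at a threshold of 0.25. Its 8 other columns were not used. Positions were taken from GENCODE release 44 on GRCh37. The members and gene lists were chosen with earlier results of these data known.

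Cells were grouped by library and lineage, and a population entered with at least 20 cluster 11 cells. UMIs were summed over cells and scaled over 22499 genes with a symbol, leaving out 10241 rows with none (0.523% to 0.591% of UMIs). Genes with at least 50 UMIs over both sums were compared, with 1 CPM added, and 2-fold was the call. Depth sets the precision, and the summed UMIs of cluster 11 were 3177505, 1694758 and 1179492 in the resistant coculture, resistant monoculture and sensitive coculture. Intervals were exact Poisson for levels and Clopper-Pearson for shares. For ratios they were Clopper-Pearson intervals on the cluster 11 share of a gene's UMIs over both sums, turned into a ratio without the added 1 CPM. With 1 library per condition no test was run.

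Genes named were the 20 highest and 12 lowest by the smallest log2 ratio over 3 populations among genes of at least 50 CPM, the 3 members of each list with the largest ratios, and the 5 largest differences each way between lineages. Of the 12 lowest, 1 is not reported here. Others are said to be chosen after their values were seen. Of 690 list genes, 20 had no match. Shares were also taken with cells thinned to 5000 UMIs. Doublets were scored anew with scrublet in scanpy 1.11.5 (threshold 0.25), and cells above it were kept. Alternatives changed phase, depth, MALAT1 or mitochondrial matching, pseudocount, level filter, scaling (TMM from edgeR 4.0.16 in R 4.3.3, scaling only), doublets and transgene UMIs. The steps were tested on simulated data.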

Additional observations from a re-analysis of the deposited data

How the results depend on the processing

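No paired analysis was possible because each condition had 1 library, so the groups shared fewer than 2 replicate numbers. Counts of 2-fold genes depended on the pseudocount and on low genes. They are given as higher/lower against the reported 33/143 (resistant coculture), 101/490 (resistant monoculture) and 86/837 (sensitive coculture). A pseudocount of 0.1 CPM gave 193/809, 458/1589 and 215/1336, and one of 10 CPM gave 4/2, 6/47 and 2/25. A mean of at least 50 CPM gave 3/2, 1/43 and 2/17. Cells with 2 or more transgene UMIs, of which cluster 11 held 38, 11 and 10, gave 82/500, 413/1763 and 390/2442. Matching on MALAT1, added after seeing the data, gave 18/65 in the resistant coculture, and matching on MALAT1 and phase gave 79 lower there and 173 higher in the sensitive coculture. Higher genes numbered 153 in the resistant monoculture with the mean of each cell's CPM, 165 there and 164 in the sensitive coculture without mitochondrial genes in the library size, and 155 in the sensitive coculture with TMM factors (583 lower). The median of the list of nuclear-retained RNAs and speckle genes in the resistant coculture was -0.13 when matched on MALAT1 and -0.11 when matched on phase as well. The share of resistant coculture cells above the doublet threshold was 22.5% at 0.20. With lineage genes at least 32-fold apart, the sensitive genes summed to 109 CPM in resistant and 285 CPM in sensitive coculture cells of cluster 11, and no resistant gene passed. HIST1H4C turned to -0.046 in the resistant coculture when matched on MALAT1 and phase, and LTB, named by the rule at -1.05, to 0.18 in the resistant monoculture with 2 or more transgene UMIs. The causes were not tested. Of values of named genes under the alternatives, 3382 moved by less than the counting interval, 711 moved by more and these 2 changed sign while called. The 35 sensitive coculture cells and genes under 20 CPM set the precision.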
